A study of Mus musculus with 16 samples.

Results

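The genotype difference in the response to diphtheria toxin (DT) was measured in whole lungs of female mice as an interaction, that is, the change with DT in ARF-DTR mice minus the change with DT in wild type mice. It rests on 12 of the 16 arrays of the series, those from mice aged 12 months: 4 ARF-DTR lungs with PBS, 4 ARF-DTR lungs with DT, 2 wild type lungs with PBS and 2 wild type lungs with DT. The other 4 arrays, from untreated ARF-DTR mice aged 2 months, entered the fit only through the spread between samples. PBS or DT, at 50 microgram per kg body weight, was injected into the peritoneum with an interval of 2 weeks for 1 month. Neither the strain nor the driver of the transgene is given in the labels. The wild type mice were included, per the series' design text, to measure effects of the toxin that do not need the transgene. In all, 24573 genes were tested, each through the brightest of its probes with signal well above background on 8 or more of the 16 arrays. Values are log2 signals relative to the 75th percentile of their array, so that 0 is the level of that percentile, and a value given after ± is a standard error of the fit unless it is named as an SD.

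Diphtheria toxin enters cells through heparin-binding EGF-like growth factor (Hbegf), and the mouse form of this receptor binds the toxin poorly, so mouse cells become sensitive when they carry a receptor from a sensitive species. Inside the cell the toxin modifies the diphthamide residue of elongation factor 2 and stops protein synthesis. ARF is a tumour suppressor encoded by the Cdkn2a locus and is made in senescent cells, and in ARF-DTR mice the receptor is placed under the control of the Arf promoter. A positive interaction means that the gene was raised more, or lowered less, with DT in ARF-DTR lungs than in wild type lungs, and a negative one the opposite. In bulk lung RNA, fewer cells of a type and less RNA per cell cannot be told apart.

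The 16 arrays filled 2 slides. On slide 1 were the 2-month and the PBS arrays of the ARF-DTR genotype, and on slide 2 its DT arrays together with all 4 wild type arrays. The change with DT in ARF-DTR lungs therefore crossed slides, where the effects of slide and of DT cannot be told apart. The same interaction is also the genotype difference with DT, which lies within slide 2, minus the genotype difference with PBS, which crosses slides. On slide 2 the DT arrays of ARF-DTR mice lay in row 1 and the wild type arrays in row 2. Genotype and row therefore cannot be told apart within slide 2. Pairs of arrays from one group had a median absolute log2 difference of 0.14, pairs from different groups of a slide 0.17 and pairs from different slides 0.26. The labelled tissue was borne out by Sftpc, the surfactant protein of alveolar type 2 cells, at 8.64 to 8.88 with PBS and 9.14 to 9.35 with DT in ARF-DTR lungs and at 9.09 to 9.28 in wild type lungs. Free descriptions conflict with the groups in wild type mice: replicate 1 with PBS is described with DT, and both replicates with DT without it. Title, source name and treatment, which match each other in every sample, were used.

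The interaction passed for genes with several patterns over the 4 groups. The sorting nexin gene Snx22 was highest in ARF-DTR lungs with DT, with an interaction of 1.17 (log2), and the endothelin receptor Ednrb (-0.90), the Wnt enhancer Rspo3 (-0.83) and the neutrophil gene Cd177 (-2.18) were lowest there. In wild type lungs Ccnjl fell with DT, giving an interaction of 1.55, and Ch25h, which makes an oxysterol, rose, giving -1.07. Among gene lists, 4 of 23 heat shock and unfolded protein response genes passed with a positive value, against 0.964% of all genes, but 0 of 23 within slide 2 and 1 of 23 under quantile normalization. Of 22 immediate early genes 3 passed with a negative value, against 1.31% of all genes. With normexp background correction 7 did, where 357 of the 24573 genes passed with a negative value. Cdkn2a, the locus on which the model is built, had 0.033 ± 0.47 and did not pass.

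Of the 24573 genes, 560 (2.28%) passed in the interaction, that is, had a Benjamini-Hochberg adjusted p under 0.05 in a limma fit over all arrays, 237 (0.964%) with a positive and 323 (1.31%) with a negative value. An unadjusted p under 0.05 was reached by 5350 genes (21.8%). At least a 2-fold difference was present in 51 of the positive and 146 of the negative genes. Scaling each array to its median in place of the 75th percentile gave 567 genes, 351 positive and 216 negative, and moved the median of all genes from 0.04 to 0.15, so the split by direction depends on the scaling. With normexp background correction 1609 genes passed, 1252 positive and 357 negative. The changes with DT ran in opposite directions in the genotypes for 437 of the 560 genes, up in ARF-DTR and down in wild type for 221 and the reverse for 216. They had the same sign in both genotypes for 123. The 560 genes were selected by the difference between these same changes, which favours opposite directions, so the counts are a description of the selected genes. The change was the larger in ARF-DTR lungs in 427 genes (76.2%), a share not counted over all genes. Over all genes the median size of the change was likewise larger there, 0.20 (log2), across slides, against 0.13 in wild type lungs. On its own, the change with DT passed for 7525 genes (30.6%) in ARF-DTR lungs, across slides, and for 46 genes (0.187%) in wild type lungs, within a slide. The first comparison has 4 arrays against 4 and the second 2 against 2. Their median standard errors were 0.10 and 0.15, so the counts do not measure the sizes of the changes. Across the 24573 genes, the changes with DT in the genotypes, which share no array, had a Pearson correlation of 0.26 and a Spearman correlation of 0.24, given as a description because genes are not independent replicates.

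**Figure D1:**
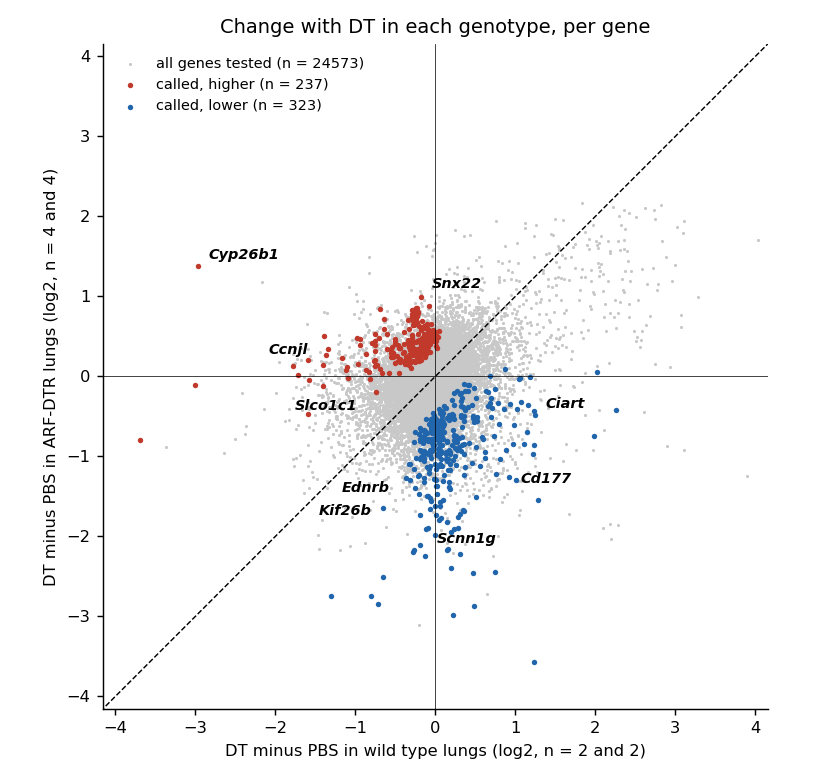
Change with DT in wild type lungs (x axis, log2, 2 arrays against 2) and in ARF-DTR lungs (y axis, log2, 4 against 4) for all 24573 genes tested (grey), with the 237 genes of positive interaction in red and the 323 of negative interaction in blue. The vertical distance from the dashed line of equal change is the interaction, and Cyp26b1 lies farthest from it among the genes labelled.

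Most of the 560 genes were set apart by the PBS arrays of ARF-DTR mice, which lay on the other slide. In 381 genes (68%) every one of these 4 arrays was above or below all other 12-month arrays, 268 times above and 113 times below, against 19.1% of all genes. In 421 genes (75.2%) the means of both groups of slide 1 lay on one side of the 3 group means of slide 2, against 48.9% of all genes. By contrast, 30 genes (5.36%) had every DT array of ARF-DTR mice outside the others, 17 above and 13 below, against 2.77% of all genes. The wild type PBS pair lay outside in 143 genes (25.5%, all genes 10.5%) and the wild type DT pair in 56 (10%, all genes 6.97%), in 49 of them below. In 72 genes no group stood apart, which was not counted over all genes. The part of the slide in the 421 genes was not tested, since it cannot be told apart from the groups.

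The genotype difference with DT, within slide 2, passed for 237 of all genes (0.964%), 156 higher and 81 lower in ARF-DTR lungs. Of the 560 genes of the interaction, 33 (5.89%) also passed this comparison with the same sign. In 73 (13%) this term was larger than the genotype difference with PBS, a share not counted over all genes. These comparisons share their DT arrays, so the overlap is a description and no independent support. The genotype difference with PBS, across slides, passed for 6099 genes (24.8%). Its median size over the 560 genes was 0.67 (log2), against 0.14 for the genotype difference with DT. Over all genes these medians were 0.23 and 0.13. Against both wild type groups together, within slide 2, the DT-treated ARF-DTR arrays differed in 1348 genes (5.49%).

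**Figure D2:**
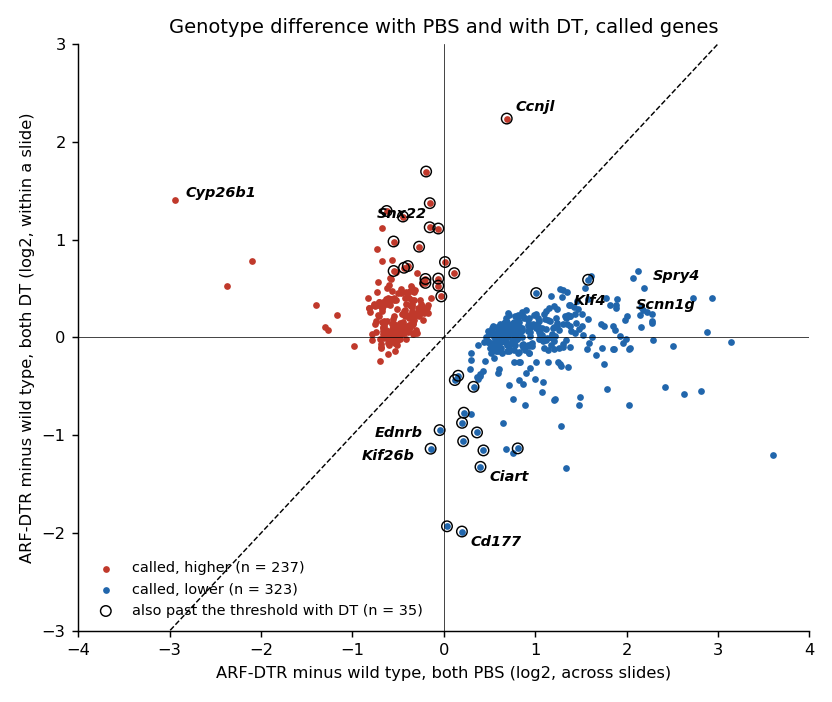
The 560 genes of the interaction by their genotype difference with PBS (x axis, log2, across slides) and with DT (y axis, log2, within slide 2), in red where the interaction was positive (237) and in blue where it was negative (323). Black rings mark 35 genes that also passed with DT, 33 of them with the sign of the interaction, and most other points lie close to the horizontal zero line.

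Among the genes raised in DT-treated ARF-DTR lungs against the 3 other 12-month groups were those for Snx22, a sorting nexin, for cyclin D2 and for the vesicle GTPase Rab27b. Snx22 (probe at chr9:65913518-65913577, mouse build mm9) read -0.032, -0.24, -0.13 and -0.24 in the DT-treated ARF-DTR lungs. With PBS the ARF-DTR lungs read -1.10, -1.13, -1.19 and -1.17, and the wild type lungs read -0.98 and -1.20 with PBS and -1.10 and -1.45 with DT. The 4 DT arrays of ARF-DTR mice were high and the other 3 groups overlapped. The interaction was 1.17 ± 0.22 (adjusted p = 0.018), and within slide 2 the level was 2.16-fold higher than in wild type lungs with DT (1.11 ± 0.15, adjusted p = 0.00561). Its 2-month arrays read -1.48 to -0.78 and overlapped the PBS and wild type groups. Without wild type PBS replicate 1 or wild type DT replicate 2 the interaction of Snx22 had an adjusted p of 0.0723 or 0.0766, while within slide 2 the call was kept without each of the 12 arrays.

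Ccnd2, which encodes cyclin D2 of the G1 phase, read 2.98, 2.96, 3.10 and 2.96 in DT-treated ARF-DTR lungs, above the 2.68 to 2.81 of the PBS group, the 2.75 and 2.77 of wild type PBS and the 2.64 and 2.53 of wild type DT. Its interaction was 0.45 ± 0.10 (adjusted p = 0.0382), and its genotype difference with DT was 0.42 ± 0.071 (adjusted p = 0.0204). At 2 months the gene stood at 3.04 to 3.21, a range that overlapped the DT-treated lungs and lay above the 12-month PBS group. Rab27b, which docks secretory vesicles at the membrane, had an interaction of 0.76 ± 0.15 (adjusted p = 0.0252), and its second kept probe gave 0.56 ± 0.18. Glipr2, a membrane-associated Golgi protein, and Efnb1, the ligand ephrin B1, had interactions of 0.76 ± 0.18 and 0.59 ± 0.13 (adjusted p = 0.0472 and 0.0373). All 4 DT-treated ARF-DTR arrays were above the 8 other 12-month arrays in each of these 4 genes. These calls rested on single arrays. Rab27b lost its call without ARF-DTR DT replicate 4 (0.0526), wild type PBS replicate 1 (0.081), wild type PBS replicate 2 (0.0797) or wild type DT replicate 2 (0.108), and with 1 array left out Ccnd2 passed only without ARF-DTR PBS replicate 4, ARF-DTR DT replicate 2 or wild type DT replicate 1, Efnb1 only without ARF-DTR PBS replicate 2, ARF-DTR PBS replicate 3 or ARF-DTR DT replicate 2 and Glipr2 only without ARF-DTR DT replicate 2. Their adjusted p values otherwise reached 0.149 for Ccnd2, 0.12 for Efnb1 and 0.148 for Glipr2. The genotype difference of Ccnd2 within slide 2 did not pass without wild type DT replicate 2 (0.098).

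The DT-treated ARF-DTR arrays were also above all others in Zdhhc2, a palmitoyltransferase, Bbc3, the apoptosis activator PUMA, and Calr, the chaperone calreticulin. Zdhhc2 read -1.29, -1.49, -0.96 and -1.29 there, against -2.29 to -2.03 with PBS and -1.80 to -1.63 in wild type lungs. Its interaction was 0.96 ± 0.19 (adjusted p = 0.0222) and its second probe gave 0.72 ± 0.25. Within slide 2 its difference was 0.46 ± 0.13 and did not pass (adjusted p = 0.115). In Zdhhc2 the PBS arrays of ARF-DTR mice were in turn below all others, so both ARF-DTR groups lay outside the wild type range. In Bbc3 and Calr, as in Zdhhc2, the means of both slide 1 groups were below the 3 group means of slide 2. Bbc3 and Calr had interactions of 0.85 ± 0.17 and 0.56 ± 0.12 (adjusted p = 0.0256 and 0.0301), and the genotype difference with DT within slide 2 was 0.44 ± 0.12 and 0.32 ± 0.082 (adjusted p = 0.101 and 0.0793). Bbc3 lost its call without ARF-DTR DT replicate 4 (0.0533), wild type PBS replicate 1 (0.0909), wild type PBS replicate 2 (0.0652) or wild type DT replicate 2 (0.11), Zdhhc2 without wild type PBS replicate 1 (0.0698), wild type PBS replicate 2 (0.0721) or wild type DT replicate 2 (0.0888) and Calr without ARF-DTR PBS replicate 3 (0.0568), ARF-DTR DT replicate 4 (0.0588), wild type PBS replicate 1 (0.0795), wild type PBS replicate 2 (0.0967) or wild type DT replicate 2 (0.121), the adjusted p in brackets. With the mean of their probes in place of the brightest, Zdhhc2 and Rab27b had an adjusted p of 0.0535 and 0.0509.

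Ednrb, Kif26b, Rspo3, Cd177 and Frrs1 were lower in DT-treated ARF-DTR lungs than in all 8 other 12-month lungs. Ednrb, the endothelin B receptor (probe at chr14:104214484-104214543, mm9), read 0.17, 0.36, -0.058 and -0.065 in the DT-treated ARF-DTR lungs, against 1.48, 1.32, 1.37 and 1.30 with PBS. The wild type lungs read 1.40 and 1.43 with PBS and 0.93 and 1.17 with DT, so their change of -0.36 ± 0.14 ran the same way but was smaller and did not pass (adjusted p = 0.275). The interaction was -0.90 ± 0.17 (adjusted p = 0.0182), and within slide 2 the level with DT was 1.93-fold lower in ARF-DTR than in wild type lungs (-0.95 ± 0.12, adjusted p = 0.00306). The second kept probe of Ednrb gave an interaction of -0.65 ± 0.20 and a difference within slide 2 of -0.83. Without wild type PBS replicate 1, wild type PBS replicate 2 or wild type DT replicate 2 the interaction had an adjusted p of 0.061, 0.0572 or 0.0776, whereas the difference within slide 2 passed without each of the 12 arrays.

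Kif26b, an unconventional kinesin, read -1.85, -1.60, -1.78 and -1.88 in DT-treated ARF-DTR lungs and -0.15, -0.34, 0.071 and -0.12 with PBS. In wild type lungs it read 0.21 and -0.19 with PBS and -0.58 and -0.70 with DT. Its interaction was -0.99 ± 0.19 (adjusted p = 0.0205) and its difference within slide 2 -1.14 ± 0.13 (adjusted p = 0.00225). Its second kept probe, well above background on 15 arrays, did not show this, with an interaction of -0.15 ± 0.22 and a difference within slide 2 of 0.12, and the mean of both probes had an adjusted p of 0.11. Without wild type PBS replicate 2 the adjusted p was 0.0865.

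Rspo3, a secreted protein that strengthens Wnt signalling, read -1.97, -2.00, -2.18 and -2.27 in DT-treated ARF-DTR lungs, -1.16, -1.16, -0.99 and -1.17 with PBS, -1.49 and -1.40 in wild type PBS and -1.58 and -1.62 in wild type DT lungs. The DT-treated ARF-DTR arrays were lowest and the PBS arrays of ARF-DTR mice highest, with the 4 wild type arrays between them. The interaction was -0.83 ± 0.13 (adjusted p = 0.0067) and ranged from -0.88 to -0.78 with each array left out in turn, passing each time. Its difference within slide 2 was -0.51 ± 0.09 (adjusted p = 0.0235) and did not pass without ARF-DTR DT replicate 3 (0.0571), ARF-DTR DT replicate 4 (0.0543), wild type DT replicate 1 (0.0828) or wild type DT replicate 2 (0.0712). Frrs1, a ferric reductase, read -2.74 to -2.57 in DT-treated ARF-DTR lungs and -2.26 to -2.13 with PBS, and its wild type arrays overlapped the latter. Its interaction was -0.55 ± 0.092 (adjusted p = 0.0104) and its difference within slide 2 -0.39 ± 0.065 (adjusted p = 0.0182). The adjusted p was 0.0567 without wild type PBS replicate 2, 0.0713 with scaling to the median and 0.0771 with normexp.

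Cd177, a surface protein of neutrophils (probe at chr7:25531261-25535362, mm9), had the largest negative interaction among the genes that the naming rule chose. It read -2.17, -2.51, -2.87 and -2.32 in DT-treated ARF-DTR lungs and -0.99, -1.48, -1.67 and -0.69 with PBS. The wild type arrays read -1.39 and -1.43 with PBS and -0.72 and -0.24 with DT, so the values moved down with DT in ARF-DTR and up in wild type lungs, with no overlap of the DT groups. The interaction was -2.18 ± 0.35 (adjusted p = 0.00821), a 4.54-fold difference between the responses, and the genotype difference with DT was -1.99 ± 0.25 (adjusted p = 0.00306). Both passed without each of the 12 arrays. Across the 18 neutrophil markers measured, Cd177 was the single one to pass, against 1.31% of all genes, and the list had a median of 0.72 in the interaction and of 0.018 within slide 2. The mean level of those markers lay between 0.92 and 1.76 in DT-treated and 1.19 and 1.85 in PBS-treated ARF-DTR lungs, at 2.18 and 2.19 in wild type PBS and at 1.01 and 2.00 in wild type DT lungs. Each of the 18 was well above background on some array of every group. Their part in the result for Cd177 was not tested.

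In a further set the wild type DT arrays were set apart. Ccnjl, a cyclin J-like protein (probe at chr11:43399495-43399554, mm9), read -3.43 and -3.45 in wild type lungs with DT and -1.83 and -2.25 with PBS. ARF-DTR lungs read -1.50, -1.13, -1.32 and -1.44 with PBS and -1.14, -1.27, -1.32 and -1.08 with DT, so they overlapped. The change with DT was -1.40 ± 0.19 in wild type (adjusted p = 0.0138) and 0.15 ± 0.13 in ARF-DTR lungs (adjusted p = 0.43). The interaction was 1.55 ± 0.23 (adjusted p = 0.00604), and with DT the level was 4.71-fold higher in ARF-DTR than in wild type lungs (2.24 ± 0.16, adjusted p = 8.28e-05), both kept without each of the 12 arrays. With normexp the interaction of Ccnjl was 1.003 (adjusted p = 0.0139). Slco1c1, a thyroid hormone transporter, had an interaction of 0.54 ± 0.11 (adjusted p = 0.0307) with the wild type DT arrays at -4.36 and -4.45 and the other 12-month arrays at -3.89 to -3.50. Bean1, a partner of the ubiquitin ligase NEDD4, had 1.68 ± 0.31 (adjusted p = 0.0174). In both genes 1 of the 2 wild type DT arrays was not well above background. Bean1 lost its call without wild type PBS replicate 2 (0.0584) and Slco1c1 without ARF-DTR DT replicate 4 (0.0606), wild type PBS replicate 1 (0.108), wild type PBS replicate 2 (0.0673) or wild type DT replicate 2 (0.114).

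Ciart, Plxnb3, Ch25h, Adgrl2 and Pdxk had negative interactions, with a higher wild type mean after DT than with PBS. Ch25h, which makes the antiviral oxysterol 25-hydroxycholesterol, read 0.92 and 0.67 in wild type lungs with DT against -0.32 and -0.17 with PBS, while ARF-DTR lungs read 0.16, 0.11, -0.42 and -0.036 with PBS and -0.22, 0.032, -0.022 and -0.087 with DT. The wild type rise of 1.05 ± 0.17 passed (adjusted p = 0.0375), the ARF-DTR groups overlapped, and the interaction was -1.07 ± 0.21 (adjusted p = 0.0241). Within slide 2 the difference was -0.87 ± 0.15 (adjusted p = 0.0214). Plxnb3, a semaphorin receptor, and Adgrl2, an adhesion receptor of the latrophilin family, had interactions of -1.59 ± 0.26 and -1.94 ± 0.32 (adjusted p = 0.0093 and 0.00994) and differences within slide 2 of -1.16 ± 0.18 and -1.14 ± 0.23 (adjusted p = 0.0138 and 0.0381). Pdxk, the kinase of vitamin B6, had -0.56 ± 0.13 (adjusted p = 0.0428), and its 2 other kept probes gave 0.36 ± 0.26 and -0.24 ± 0.15, of opposite signs. Ch25h lost its call without wild type PBS replicate 1 (0.0872), wild type PBS replicate 2 (0.0572) or wild type DT replicate 1 (0.0548). Pdxk passed only without ARF-DTR DT replicate 2 or wild type DT replicate 1, with an adjusted p of up to 0.172 otherwise, whereas Plxnb3 and Adgrl2 kept their interaction in all 12 such fits. Their differences within slide 2 did not pass without wild type DT replicate 1 (0.0744) for Plxnb3 and ARF-DTR DT replicate 2 (0.0657), ARF-DTR DT replicate 3 (0.0803), ARF-DTR DT replicate 4 (0.0791) or wild type DT replicate 1 (0.181) for Adgrl2. Scaling to the median left Ch25h at an adjusted p of 0.0523, and normexp left Adgrl2 at -0.76 (adjusted p = 0.0532) and Plxnb3 at -0.75 (adjusted p = 0.033).

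Ciart encodes a repressor of the circadian clock's CLOCK-BMAL1 activator, which binds E-box motifs. The 250 bases before its start hold the E-box CACGTG 3 times, shown here because Ciart is the clock gene that passed. A match to these letters describes the sequence and not binding. The window is chr3:95882229-95882478 on the minus strand of GRCm38.p6, from RefSeq, written 5′ to 3′ with the E-boxes in capitals. This palindrome, searched on both strands, occurs at least once in 6.02% of 32851 such windows and 3 or more times in 0.0609%. Of the 21 clock genes, 17 have a window and 5 of these hold the motif in at least 1 window (Bhlhe41, Ciart, Cry1, Per1 and Tef). A gene can have several windows, so this count of genes and the share of windows are unlike measures.
Ciart: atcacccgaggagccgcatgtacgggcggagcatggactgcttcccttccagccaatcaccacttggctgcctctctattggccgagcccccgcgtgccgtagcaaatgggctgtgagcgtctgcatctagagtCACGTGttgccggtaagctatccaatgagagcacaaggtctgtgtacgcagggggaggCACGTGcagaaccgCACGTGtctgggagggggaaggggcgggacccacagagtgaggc

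Ciart read -2.73, -1.78, -2.54 and -2.25 in DT-treated ARF-DTR lungs and -1.89, -1.68, -1.76 and -2.04 with PBS. Wild type values were -2.37 and -2.12 with PBS and -1.21 and -0.79 with DT, the highest of the 12 arrays. The interaction was -1.73 ± 0.34 (adjusted p = 0.0227), and the difference within slide 2 was -1.32 ± 0.24 (adjusted p = 0.024). Without wild type PBS replicate 1, wild type PBS replicate 2 or wild type DT replicate 2 the adjusted p was 0.0841, 0.0526 or 0.0943, and the difference within slide 2 did not pass without ARF-DTR DT replicate 3 (0.0586), ARF-DTR DT replicate 4 (0.0559) or wild type DT replicate 2 (0.125). Ciart was the single one of 21 clock genes to pass in the interaction, with a list median of -0.14 against 0.04 for all genes. At an unadjusted p under 0.05 there were 8 of the 21, against 21.8% of all genes. In the genotype difference with DT, within slide 2, 11 of the 21 passed, 4 higher and 7 lower in ARF-DTR lungs, against 0.635% and 0.33% of all genes. Arntl and Npas2, which form the activator, were higher there (2.10 and 1.96, adjusted p = 0.000479 and 0.00117), and Dbp, an output factor driven by it, was lower (-2.38, adjusted p = 0.00123). With PBS, across slides, the genotype difference was of the same sign, 1.32, 1.51 and -2.72, so these 3 genes, named after their values were seen, had interactions of 0.78, 0.44 and 0.34, none of which passed. The time of day of sampling is not in the labels, and its part in these values was not tested.

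Scnn1g, Spry4 and several other genes with large negative interactions differed between the slides. Scnn1g, the gamma subunit of the epithelial sodium channel that clears alveolar fluid, read 0.92, 0.79, 0.94 and 0.82 in ARF-DTR lungs with PBS and -0.98, -0.56, -1.39 and -1.20 with DT. In wild type lungs the levels were -1.04 and -1.22 with PBS and -1.62 and -0.87 with DT, and the 2-month arrays of slide 1 read 0.69 to 0.93. All 8 arrays of slide 1 were thus above all 8 of slide 2. The interaction of -1.78 ± 0.30 (adjusted p = 0.00968) was made up of a genotype difference of 2.00 ± 0.21 with PBS, across slides, and of 0.22 ± 0.21 within slide 2 (adjusted p = 0.687).

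Spry4, a feedback inhibitor of receptor tyrosine kinase signalling, had an interaction of -1.68 ± 0.25 (adjusted p = 0.00604), with 2.19 ± 0.18 with PBS and 0.51 ± 0.18 within slide 2 (adjusted p = 0.181), so the terms had the same sign. Psg16, Lyar, Ly6f and the pseudogene Cyp4b1-ps2 had interactions of -1.50, -1.56, -1.58 and -1.54, and in each of them, and in Spry4, all 8 arrays of slide 1 were above all 8 of slide 2. Their differences within slide 2 ran from -0.30 to 0.39 and did not pass. In Lyar 1 array of each wild type pair was not well above background. With normexp Lyar had -0.31 and did not pass (adjusted p = 0.196), and Psg16 had -0.77 (adjusted p = 0.0145). Scnn1g and Spry4 passed without each of the 12 arrays. The others lost their call without wild type PBS replicate 1 (Lyar, 0.0914, and Ly6f, 0.088), wild type PBS replicate 2 (Ly6f, 0.0689, and Cyp4b1-ps2, 0.0923) and wild type DT replicate 2 (Psg16, 0.0599, Lyar, 0.0973, Ly6f, 0.108, and Cyp4b1-ps2, 0.0976).

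The gene with the largest positive interaction that could be named was Cyp26b1, which breaks down retinoic acid (probe at chr6:84521952-84522011, mm9). It read 0.29, 1.52, 1.58 and 0.35 in ARF-DTR lungs with PBS and 2.35, 3.21, 2.18 and 1.50 with DT, groups that overlapped. Wild type lungs read 3.30 and 4.46 with PBS and 0.64 and 1.17 with DT. The interaction was 4.35 ± 1.03 (adjusted p = 0.0472), of which the wild type fall of -2.97 ± 0.84 did not pass on its own (adjusted p = 0.162). Within slide 2 its difference was 1.40 ± 0.73 and did not pass (adjusted p = 0.381). Under quantile normalization the interaction had an adjusted p of 0.053. The 2-month arrays spread from -0.10 to 3.13, and with 1 array left out the gene passed only without ARF-DTR DT replicate 2, with an adjusted p of up to 0.155 otherwise.

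In Upp1, Plaur, Olfr1252 and Atf3 the genotype difference was larger with PBS than with DT. Upp1, which salvages uridine, read 0.62, 0.66, 0.71 and 0.85 in ARF-DTR lungs with PBS and 1.37, 1.25, 1.56 and 1.51 with DT. The wild type arrays read 1.18 and 1.38 with PBS and 1.05 and 0.84 with DT. Its interaction of 1.05 ± 0.15 (adjusted p = 0.00522) had a second probe at 0.97 ± 0.27 and passed without each of the 12 arrays. The ARF-DTR values were below the wild type values with PBS and above them with DT, where the difference was 0.48 ± 0.11 (adjusted p = 0.0551).

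Plaur, the urokinase receptor found on senescent cells, read 2.53 and 2.56 in wild type lungs with PBS and 3.12 and 3.23 with DT. ARF-DTR lungs read 3.19, 3.35, 3.15 and 3.33 with PBS and 3.02, 3.14, 3.04 and 3.10 with DT. The wild type PBS pair was low, the wild type DT arrays overlapped both ARF-DTR groups, and the wild type rise of 0.63 ± 0.098 passed (adjusted p = 0.0299). The interaction was -0.81 ± 0.12 (adjusted p = 0.00604) and passed without each of the 12 arrays, with a difference within slide 2 of -0.10 ± 0.085 (adjusted p = 0.635). Olfr1252, annotated as an olfactory receptor, gave -2.10 ± 0.35 (adjusted p = 0.0093), also with the wild type PBS pair below all other 12-month arrays. Eif2s3y, a Y-linked gene with a close copy on the X chromosome, gave 1.07 ± 0.20 and was above background on all 16 arrays of these females, while the Y-linked Ddx3y and Kdm5d were so on 0 and the probes of the Y-linked Uty on 3 and on 1. Which transcript its probe reads was not tested. The same holds for Olfr1252 and Olfr259, H3c15, Psg16, Ly6f and Cyp4b1-ps2, members of families with close copies. Eif2s3y lost its call without wild type PBS replicate 1 (0.0767), wild type PBS replicate 2 (0.0509) or wild type DT replicate 2 (0.0775).

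The remaining genes with large interactions are given by their size. On the positive side these were the histone gene H3c15 (1.13), Fcor (1.34), which binds FOXO1, the olfactory receptor Olfr259 (1.06), Gcat (0.97) of threonine breakdown, Mpzl3 (0.96) and suprabasin, Sbsn (0.95). On the negative side they were the inhibin subunit Inha (-1.82) and Cand2 (-1.52). In none of these 8 did the difference within slide 2 pass (adjusted p = 0.0813 for Inha to 0.915 for Fcor). All 8 lost their call in at least 1 of the 12 fits with 1 array left out, H3c15 in 1, without wild type PBS replicate 1 (0.0715), and the others in 7 to 10, in each case without wild type PBS replicate 2 among them (adjusted p = 0.0708 for Sbsn to 0.156 for Mpzl3).

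The genes on which the model rests did not pass in the interaction. Cdkn2a, whose locus encodes ARF and p16, read -2.29 to -1.79 with PBS and -2.18 to -1.19 with DT in ARF-DTR lungs, and -2.18 and -1.52 with PBS and -1.03 and -2.05 with DT in wild type lungs. All 4 groups overlapped, and the interaction was 0.033 ± 0.47 (adjusted p = 0.979). Hbegf, the mouse gene for the toxin receptor, had 0.47 ± 0.22 (adjusted p = 0.224). Whether its probe also reads the transgene's RNA was not tested.

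Cdkn1a, which encodes the cell cycle inhibitor p21, read 1.93, 2.10, 2.21 and 2.13 in DT-treated and 1.74, 2.01, 1.86 and 2.02 in PBS-treated ARF-DTR lungs. Wild type values were 1.21 and 1.02 with PBS and 1.36 and 1.43 with DT. Both ARF-DTR groups were above both wild type groups, so the genotype difference within slide 2 of 0.70 ± 0.14 passed (adjusted p = 0.0339) and the interaction was -0.094 ± 0.19 (adjusted p = 0.81). The 2 other kept probes of Cdkn1a gave interactions of -0.54 ± 0.43 and 0.40 ± 0.26, of opposite signs. Their differences within slide 2 were 1.16 and 0.64. The inhibitor Cdkn2b was likewise higher in ARF-DTR lungs with DT (0.57 ± 0.091, adjusted p = 0.0138) with an interaction of 0.14 ± 0.13 (adjusted p = 0.557). The genotype difference of Cdkn1a with DT did not pass without ARF-DTR DT replicate 2 (0.0644), ARF-DTR DT replicate 3 (0.0754), ARF-DTR DT replicate 4 (0.0791), wild type DT replicate 1 (0.113) or wild type DT replicate 2 (0.0924), and that of Cdkn2b did not without wild type DT replicate 2 (0.0565).

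The next lists had few passing members, to be read against 0.964% of all genes upward, 1.31% downward and 21.8% at an unadjusted p under 0.05. Over the 22 cell cycle inhibitors and senescence regulators measured, 1 passed upward, the inhibitor Cdkn1c (0.48 ± 0.11, adjusted p = 0.0391), and 1 downward, Plaur. Among 50 secreted factors of senescent cells 0 passed upward and 2 downward, Igfbp7 (-1.16 ± 0.23) and Plaur. The median of that list was 0.05, against 0.04 for all genes. The cytokine gene Il1a had -1.11 ± 0.27 and did not pass (adjusted p = 0.0506). Igfbp7, a binding protein of the IGF family, had both groups of slide 1 above slide 2, with 1.38 ± 0.16 with PBS and 0.22 ± 0.16 within slide 2. Gdf15, a stress cytokine, had -1.10 ± 0.30 and did not pass (adjusted p = 0.0672). Of 15 genes of the toxin's receptor, diphthamide synthesis and elongation factor 2, 1 passed upward, the chaperone Hsp90ab1 (0.46 ± 0.11, adjusted p = 0.0481). Under quantile normalization 0 of the 15 passed, with Hsp90ab1 at 0.17 (adjusted p = 0.523), and Cdkn1c had an adjusted p of 0.0655. Of 17 EGF-like ligands and ErbB receptors, 1 passed upward, the receptor Erbb3 (0.70 ± 0.16, adjusted p = 0.0413). Among 20 p53 targets 1 passed, Bbc3, and among 30 genes of mitosis and DNA replication 0 did, with a median of -0.33 and 3 of 30 at an unadjusted p under 0.05. That level was reached by 8 of the 15 toxin-related genes, 8 of the 20 p53 targets and 7 of the 22 inhibitors and regulators. It was also reached by 13 of the 50 secreted factors and by 4 of the 17 EGF-like ligands and ErbB receptors. Igfbp7 lost its call without wild type PBS replicate 2 (0.0907) or wild type DT replicate 2 (0.0649). With 1 array left out, Cdkn1c passed only without ARF-DTR DT replicate 2 or ARF-DTR DT replicate 3, Hsp90ab1 only without ARF-DTR DT replicate 2 and Erbb3 only without ARF-DTR PBS replicate 2, ARF-DTR DT replicate 2, ARF-DTR DT replicate 4, wild type PBS replicate 2 or wild type DT replicate 1.

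Heat shock and unfolded protein response genes, the chaperones and transcription factors that respond to misfolded protein, had mostly positive values: 4 of 23 passed with a positive interaction, against 0.964% of all genes, and 0 with a negative one. The median was 0.46, and 19 of 23 were positive. At an unadjusted p under 0.05 there were 14 of the 23, against 21.8% of all genes. Hsp90aa1, the inducible cytosolic HSP90, read 5.12, 5.17, 5.06 and 5.49 in ARF-DTR lungs with PBS and 5.69, 5.39, 5.87 and 5.67 with DT. In wild type lungs the levels were 5.81 and 5.96 with PBS and 5.55 and 5.23 with DT, so the values crossed, with an interaction of 0.94 ± 0.22 (adjusted p = 0.0452) and a difference within slide 2 of 0.27 ± 0.16 (adjusted p = 0.445). The small heat shock protein gene Hspb1 read 5.71, 5.93, 5.58 and 5.67 in ARF-DTR lungs with PBS and 5.72, 5.77, 6.21 and 5.76 with DT. In wild type lungs it read 6.01 and 6.26 with PBS and 5.53 and 5.27 with DT, the lowest of the 12 arrays, and its interaction was 0.87 ± 0.20 (adjusted p = 0.0427), with 0.46 ± 0.14 within slide 2 (adjusted p = 0.138). Calr, given above, and Ddit3, the stress factor CHOP (0.51, adjusted p = 0.0484), were the others. The member with the largest value of any sign was Hspa1a, inducible HSP70, with -1.49, not past the threshold (adjusted p = 0.178), which has a near-identical neighbour, Hspa1b. Within slide 2, 0 of the 23 passed and the median was 0.15. Under quantile normalization 1 of the 23 passed in place of 4, with a median of 0.32, and with 1 array left out Hsp90aa1 passed only without ARF-DTR PBS replicate 4, ARF-DTR DT replicate 2 or wild type DT replicate 1 and Hspb1 only without ARF-DTR PBS replicate 2, ARF-DTR DT replicate 2, ARF-DTR DT replicate 3 or wild type DT replicate 1.

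The heat shock factor binds repeats of GAA and its inverse, and the 250 bases before the start of Hspb1 hold the palindrome GAANNTTC 2 times. The window is chr5:135887669-135887918 on the plus strand of GRCm38.p6, from RefSeq, written 5′ to 3′ with the matches in capitals. At least 1 match is present in 6.69% of the 32851 windows and at least 2 in 0.228%. Of 21 list members with a window 5 hold a match in at least 1 window (Asns, Hspa1a, Hspb1, Hspd1 and Hspe1), of which Hspb1 passed. Members were counted by gene over all their windows, so their count and the share of windows are unlike measures.
Hspb1: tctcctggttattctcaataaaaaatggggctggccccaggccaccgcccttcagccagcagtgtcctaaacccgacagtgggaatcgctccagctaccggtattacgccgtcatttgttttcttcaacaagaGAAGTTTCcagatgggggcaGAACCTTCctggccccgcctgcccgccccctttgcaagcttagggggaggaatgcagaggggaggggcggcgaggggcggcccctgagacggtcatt

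Immediate early and AP-1 genes, which respond within minutes to stress and growth signals, had mostly negative values, 18 of 22. Of the 22 measured, 3 passed with a negative interaction, against 1.31% of all genes, and 0 with a positive one, with a median of -0.46. At an unadjusted p under 0.05 there were 11 of the 22, against 21.8% of all genes. With normexp 7 of the 22 passed with a negative value, where 357 of the 24573 genes did. The 3 were Zfp36, which destabilises cytokine mRNA (-1.26 ± 0.25, adjusted p = 0.0256), and the transcription factors Atf3 (-1.26 ± 0.24, adjusted p = 0.0227) and Klf4 (-1.10 ± 0.20, adjusted p = 0.018). In Zfp36 every PBS array of ARF-DTR mice was above all other 12-month arrays. The means of both slide 1 groups of Zfp36 were above the 3 group means of slide 2, and its difference within slide 2 did not pass. Atf3 read 1.91, 2.18, 2.06 and 1.91 in ARF-DTR lungs with PBS and 1.88, 1.50, 1.69 and 1.37 with DT. In wild type lungs it read 0.65 and 1.03 with PBS and 1.84 and 1.54 with DT, so the wild type PBS pair was lowest and the DT groups overlapped, with a difference within slide 2 of -0.079 ± 0.17 (adjusted p = 0.88). In Klf4 the PBS arrays of ARF-DTR mice were likewise highest and the wild type PBS pair lowest, and its difference within slide 2 was 0.22 ± 0.14, against 1.32 ± 0.14 with PBS. Within slide 2 a different set passed, 4 lower in ARF-DTR lungs with DT, against 0.33% of all genes: Egr1 (-1.77), Nr4a1 (-1.17), Ccn1 (-1.04) and Btg2 (-0.59), of which the first 3 were named after their values were seen. Without wild type PBS replicate 1 the interaction had an adjusted p of 0.0978 for Zfp36, 0.0914 for Atf3 and 0.074 for Klf4. It also failed for Zfp36 without ARF-DTR DT replicate 4 (0.0533) or wild type DT replicate 2 (0.101), for Klf4 without wild type DT replicate 2 (0.0662) and for Atf3 without wild type DT replicate 1 (0.0535).

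Among the cell type markers few genes passed although some lists lay far from the median of all genes. Over all genes, 0.964% passed upward, 1.31% downward and 21.8% reached an unadjusted p under 0.05. All 9 mesothelial markers were positive, with a median of 1.30, and 0 passed, with 8 at an unadjusted p under 0.05. With normexp 3 of the 9 passed, where 1609 of the 24573 genes did. Bnc1, Aldh1a2, which makes retinoic acid, and Upk3b had 1.50 ± 0.42, 1.30 ± 0.36 and 1.30 ± 0.37 (adjusted p = 0.0746, 0.0736 and 0.0762). The mean level of the 9 markers lay between 1.64 and 2.60 in DT-treated and 1.25 and 1.60 in PBS-treated ARF-DTR lungs, and at 1.62 and 1.98 in wild type PBS and 1.12 and 1.42 in wild type DT lungs. All 12 markers of the cardiac muscle of the pulmonary veins were negative, with a median of -1.84, and 0 passed, with 1 at an unadjusted p under 0.05. Tnnt2, cardiac troponin T, had -1.82 ± 1.09, and at 2 months its arrays spread from 0.65 to 4.46. The cardiac markers' mean level spread from -0.87 to 3.45 within the 2-month group alone, wider than between the 12-month groups.

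Natural killer and cytotoxic cell genes had a median of 0.84 in the interaction and of 0.19 within slide 2 (0 of 19 passed in the interaction, 12 at an unadjusted p under 0.05 against 21.8% of all genes, 18 positive, and 4 passed with normexp), with Klrg1 at 1.20 ± 0.32 (adjusted p = 0.0672). Over all genes, 13491 of 24573 were positive in the interaction, and with normexp 1252 passed upward and 357 downward. Interferon-induced genes had a median of 0.60, and 0.21 within slide 2 (0 of 30 passed, 11 at an unadjusted p under 0.05, 29 positive), with Xaf1 at 0.80 ± 0.24 and Bst2 at 0.80 ± 0.24. The mean level of these genes lay between 1.33 and 2.17 in DT-treated and 0.68 and 1.05 in PBS-treated ARF-DTR lungs. It was 1.07 and 1.42 in wild type PBS and 1.11 and 1.60 in wild type DT lungs, so the DT groups overlapped. The 40 cytosolic ribosomal proteins were all positive with a median of 0.39, and 1 passed, Rps23 (0.53 ± 0.12, adjusted p = 0.0412), against 0 under quantile normalization, where Rps23 had 0.21, and 8 with normexp. With 1 array left out Rps23 passed only without ARF-DTR DT replicate 2 or wild type DT replicate 1. Of the 40 ribosomal genes, 37 had an unadjusted p under 0.05. The mean ribosomal level was 6.89 to 7.07 on slide 1 and 7.24 to 7.50 on slide 2, whatever the group, the median within slide 2 was -0.075, and under quantile normalization the median interaction was 0.045. Alveolar type 2 markers had a median of 0.23 (0 of 17 passed, 5 unadjusted), with Sftpc at 0.58 ± 0.15 (adjusted p = 0.0656), and alveolar type 1 markers 0.12 (1 of 14, Cav1, 0.54 ± 0.12). Ciliated cell markers had a median of -0.09 and club cell markers of -0.39, with 0 of 20 and 0 of 15 passing (4 and 4 unadjusted). Of the 15 club cell markers 3 passed with a positive value with scaling to the median, and 3 with normexp, where 351 and 1252 of the 24573 genes did. Vascular endothelial markers had 1 of 23 passing upward, the transcription factor Sox18 (0.71 ± 0.17, adjusted p = 0.0481), and 1 downward, Ednrb. Alveolar macrophage, B cell and T cell markers had medians of -0.10, -0.24 and -0.27, and 0 of 20, 19 and 26 passed (1, 0 and 3 unadjusted). The medians of ciliated cells and alveolar macrophages turned positive with scaling to the median (0.019 and 0.0028), and that of alveolar type 1 cells negative under quantile normalization (-0.040). With 1 array left out Cav1 passed only without ARF-DTR PBS replicate 2, ARF-DTR PBS replicate 4 or ARF-DTR DT replicate 2 and Sox18 only without ARF-DTR PBS replicate 2, ARF-DTR DT replicate 2 or wild type DT replicate 1.

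**Figure D3:**
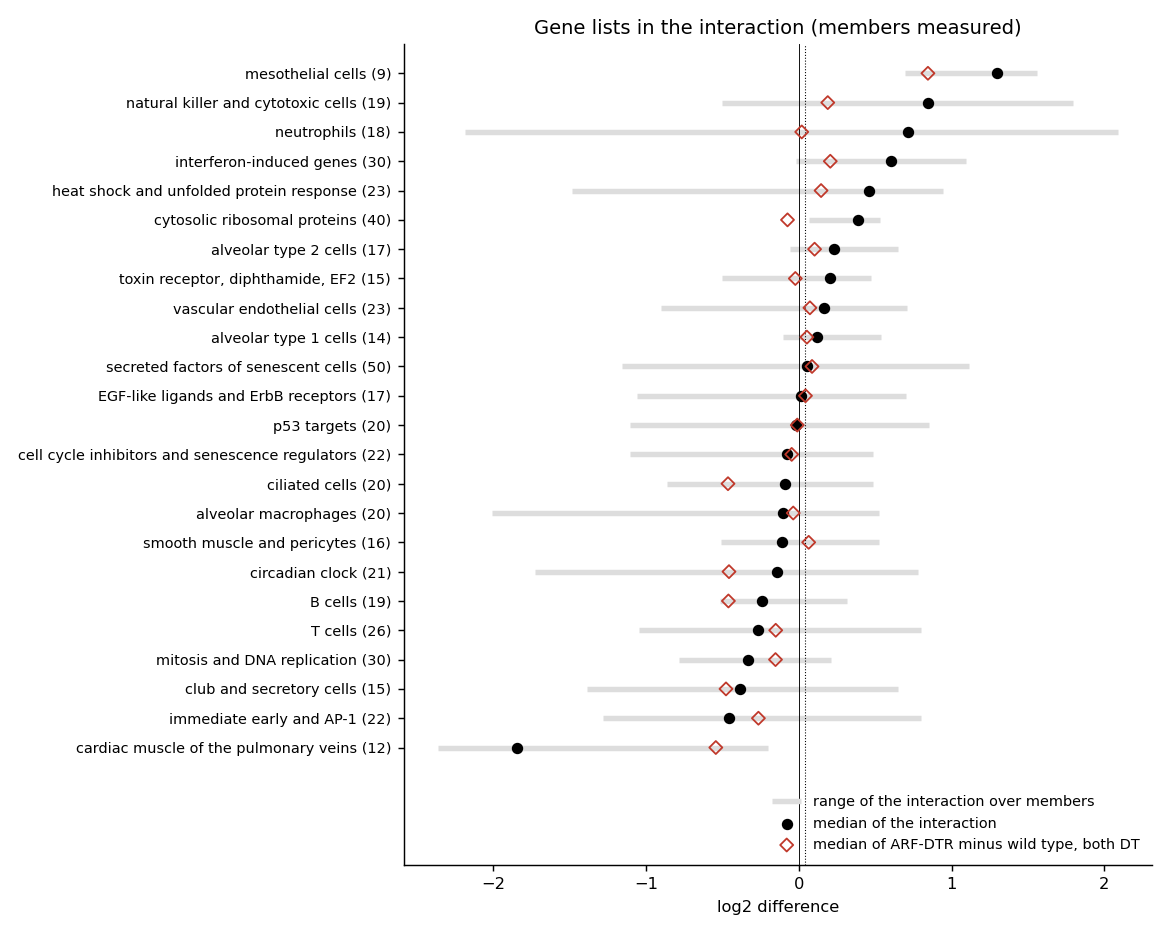
Median interaction (black points), range over members (grey bars) and median genotype difference with DT within slide 2 (open diamonds) for 24 gene lists, with the number of members measured in brackets (x axis, log2). The dotted line marks the median of all genes, 0.04, and mesothelial (1.30) and cardiac (-1.84) markers lie farthest from it, in both cases with a smaller value within slide 2 (0.84 and -0.54).

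How many genes passed depended on the arrays. Leaving out 1 array at a time gave 222 to 1163 genes in place of 560. The count moved more than 1.5 times without ARF-DTR PBS replicate 1 (313) and 3 (296), without ARF-DTR DT replicate 1 (373), 2 (1163), 3 (327) and 4 (252), without wild type PBS replicate 1 (268) and 2 (222) and without wild type DT replicate 2 (244). Where an arm was left with 1 wild type array, that array is taken to vary like the other groups. For the genotype difference with DT, 237 genes became 104, 88 and 83 without ARF-DTR DT replicate 2, 3 and 4. Of the 56 named genes that passed in the interaction, 19 to 20 kept their call without wild type PBS replicate 1, wild type PBS replicate 2 or wild type DT replicate 2, 29 to 42 without each of the other arrays except ARF-DTR DT replicate 2, and 56 without that one. The 9 that kept it under all 23 other settings of the interaction were Ccnjl, Upp1, Cd177, Olfr1252, Scnn1g, Spry4, Plxnb3, Rspo3 and Plaur. Among the other settings, normexp ended the calls of Adgrl2, Inha, Lyar, Cand2, Frrs1 and Masp1 and left Bean1 at 1.02 and Fcor at 0.87. Scaling to the median ended those of Cand2, Ch25h, Pdxk, Frrs1 and Rps23. Quantile normalization ended those of Cyp26b1, Hsp90aa1, Hspb1, Hsp90ab1, Inha, Cand2, Efnb1, Ccnd2, Cdkn1c, Sox18, Rps23 and Dhrs3, and the mean of a gene's probes those of Mpzl3, Zdhhc2, Rab27b, Kif26b, Pdxk and Cox17. Of the 56, 31 kept their call without a filter on brightness, 37 with the 12 arrays alone, 51 with a trended and robust prior and 52 with probes above background on 4 or more arrays. Of 206 other kept probes of the 560 genes, 152 (73.8%) had the sign of the probe used.

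**Figure D4:**
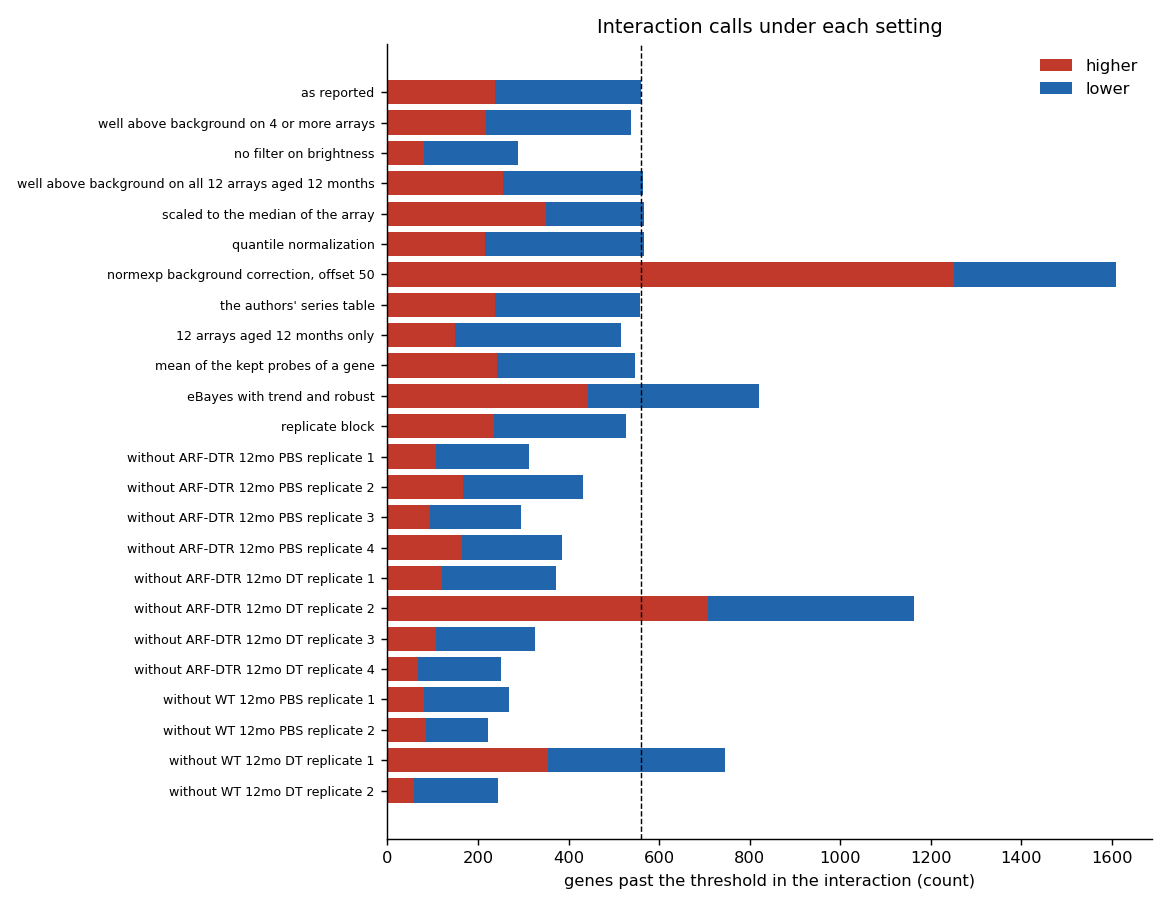
Number of genes that passed in the interaction (x axis) as reported and under 23 other settings (rows), split into positive (red) and negative (blue), with a dashed line at 560. Counts ran from 222 without wild type PBS replicate 2 to 1609 with normexp background correction.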

How the data were processed

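Each sample was 1 array of 1 colour, with Cy3-labelled RNA of a whole lung. The authors deposited scanner output with background-corrected intensity values per spot and quality flags, made with Agilent Feature Extraction 10.10.1.1 per the submitters' processing notes and the file headers. They also deposited a table of log2 values, which equal the log2 intensity minus about the 75th percentile of the array. Spots of one probe were averaged after control and flagged spots were left out. Log2 signals were then scaled to the 75th percentile of the array, whose linear value was 613 to 1088. Of 55681 probes, 35192 were well above background on 8 or more of the 16 arrays, and 0 spots were saturated. Genes were named through RefSeq accessions (27656 probes), symbols (3722) or as in the files (24303), and probe positions are those of the files (mm9). Each gene was tested on its brightest kept probe with limma 3.58.1 in R 4.3.3 (5 group means, eBayes, two-sided, Benjamini-Hochberg over 24573 genes), after a test on simulated data.

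Named genes were Cdkn2a, Cdkn2b, Cdkn1a and Hbegf, up to 14 per direction with the largest interaction, up to 10 per direction that also passed with DT within slide 2, and the 3 smallest p of each list described. For the second and the third group a probe had to be above background on at least 1 of 2 arrays (wild type) or 2 of 4 (ARF-DTR) in each 12-month group and to have a proper symbol. Of the listed genes, 1 is not reported here and was left out of the lists. Genes, lists and tests were chosen with earlier results of these data known. The labels do not say that samples are separate mice, so the spread behind the p-values may be a technical one, and the small number of arrays limits the precision. Alternatives covered the filter, scaling, background correction, gene summary, prior, replicate block and each array left out.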

Additional observations from a re-analysis of the deposited data

Results flagged for a closer look

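Each of the 56 named genes that passed in the interaction, the test of the difference between the 2 genotypes' changes with DT, is listed here with its value (log2) in brackets. Ddit3 of the heat shock list also passed but is not among the 56, and its call was not examined with single arrays left out. On the ARF-DTR side DT and slide cannot be told apart, so these values are not shown to come from DT. Positive values were found for Cyp26b1 (4.35), Bean1 (1.68), Ccnjl (1.55), Fcor (1.34), Snx22 (1.17), H3c15 (1.13), Eif2s3y (1.07), Olfr259 (1.06), Upp1 (1.05) and Gcat (0.97). Smaller positive values belonged to Mpzl3 (0.96), Zdhhc2 (0.96), Sbsn (0.95), Hsp90aa1 (0.94), Hspb1 (0.87), Bbc3 (0.85), Rab27b (0.76), Glipr2 (0.76), Sox18 (0.71) and Erbb3 (0.70). The smallest were those of Efnb1 (0.59), Calr (0.56), Slco1c1 (0.54), Cav1 (0.54), Rps23 (0.53), Cdkn1c (0.48), Hsp90ab1 (0.46) and Ccnd2 (0.45). Negative values were found for Cd177 (-2.18), Olfr1252 (-2.10), Adgrl2 (-1.94), Inha (-1.82), Scnn1g (-1.78), Ciart (-1.73), Spry4 (-1.68), Plxnb3 (-1.59), Ly6f (-1.58) and Lyar (-1.56). Smaller negative values belonged to Cyp4b1-ps2 (-1.54), Cand2 (-1.52), Psg16 (-1.50), Zfp36 (-1.26), Atf3 (-1.26), Igfbp7 (-1.16), Klf4 (-1.10), Ch25h (-1.07), Kif26b (-0.99) and Ednrb (-0.90). The smallest were those of Rspo3 (-0.83), Plaur (-0.81), Pdxk (-0.56) and Frrs1 (-0.55). Rarb (0.61), Dhrs3 (0.58), Cox17 (-2.13) and Masp1 (-2.17) were named after their values were seen.

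Among 224 groups of 4 arrays, 10 held 1 array whose level lay far from the 3 others by Dixon's criterion, which chance meets in about 1 in 20 groups. In the DT group of ARF-DTR mice this was replicate 3 for Ccnd2 (3.10), Hspb1 (6.21), Tnnt2 (3.27) and Cd22 (-0.26), and replicate 2 for Masp1 (-5.24). In the PBS group it was replicate 1 for Slco1c1 (-3.69), replicate 2 for Gcat (0.74) and Rplp0 (7.54), replicate 3 for Rspo3 (-0.99) and replicate 4 for Masp1 (-4.69). The wild type groups hold 2 arrays each and could not be examined in this way.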

How the results depend on the processing

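The count of 560 genes in the interaction was 538 with probes above background on 4 or more arrays, 565 with those above it on all 12 arrays, 288 without a filter on brightness, 567 with scaling to the median, 567 under quantile normalization, 558 from the authors' deposited table, 515 with the 12 arrays alone, 546 with the mean of a gene's probes, 821 with a trended and robust prior and 1609 with normexp. It ranged from 222 to 1163 with 1 array left out. The 237 genes of the genotype difference with DT became 3544 without the filter and 126 with normexp, and 83 to 307 with 1 array left out. With the mean of both wild type groups as the baseline, a contrast that stays on 1 slide, 1348 genes passed. That contrast has no PBS baseline in ARF-DTR mice. Sign changes were counted only for named genes that passed in it or in the interaction, not for those that passed in neither. Of the genes so counted, 17 had the opposite sign in it: Cdkn1a (0.84), Cyp26b1 (-0.084), Fcor (-0.40), Eif2s3y (-0.19), Olfr259 (-0.12), Olfr1252 (0.0041), Scnn1g (0.16), Spry4 (0.79), Lyar (0.42), Psg16 (0.37), Plaur (0.22), Igfbp7 (0.31), Dph7 (-0.28), Klf4 (0.57), Atf3 (0.35), Cav1 (-0.027) and Rps23 (-0.089). The cause of the other changes was not tested. In the 23 settings that are interactions, none of the 56 named genes that passed changed sign, and 9 kept their call in all.

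With the replicate number as a block, 528 genes passed in the interaction and 119 in the genotype difference with DT, and 43 of the 56 named genes kept their call in the former and 12 of 22 in the latter. The numbers did not pair the arrays: same-numbered PBS and DT arrays of ARF-DTR mice had correlations of deviations of 0.12, 0.35, -0.061 and 0.058, those of wild type mice 0.10, and 1 of the 4 PBS arrays correlated best with its own number. Slide as a term was not run, since no group spans slides. The wild type arms of 2 arrays set the precision, with a median standard error of 0.18 (log2) for the interaction against 0.10 for the change with DT in ARF-DTR lungs. Brightness limits Bean1, Olfr259, Mpzl3, Lyar and Slco1c1, whose probes were well above background on 1 of the 2 wild type DT arrays.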

Other observations

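Rarb, a retinoic acid receptor, and Dhrs3, which reduces retinaldehyde, passed with a positive interaction and were picked after their values were seen, so they stand for no group of genes. Rarb had a mean of 0.62 ± 0.12 with PBS and 0.86 ± 0.054 with DT in ARF-DTR lungs (SD, n = 4), and of 0.97 ± 0.051 with PBS and 0.59 ± 0.11 with DT in wild type lungs (SD, n = 2). Its interaction was 0.61 ± 0.13 (adjusted p = 0.0351) and its second probe gave 0.71 ± 0.24. Dhrs3 read 5.44, 5.55, 5.58 and 5.70 in ARF-DTR lungs with PBS and 5.90, 5.83, 5.80 and 5.82 with DT, and 5.80 and 5.82 with PBS and 5.65 and 5.35 with DT in wild type lungs, with an interaction of 0.58 ± 0.13 (adjusted p = 0.0342). In both genes the means moved up with DT in ARF-DTR and down in wild type lungs. Within slide 2 the genotype difference with DT was 0.27 ± 0.095 for Rarb and 0.34 ± 0.09 for Dhrs3 (adjusted p = 0.189 and 0.0932). With 1 array left out Rarb passed only without ARF-DTR PBS replicate 4 or ARF-DTR DT replicate 2 and Dhrs3 only without ARF-DTR PBS replicate 4, ARF-DTR DT replicate 2 or wild type DT replicate 1. Under quantile normalization Dhrs3 had 0.38 (adjusted p = 0.136).

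The probes of Cox17, a copper chaperone of cytochrome c oxidase, and Masp1, a protease of the lectin pathway of complement, had fitted interactions of -2.13 ± 0.42 and -2.17 ± 0.46, but they were dim in some groups, so these sizes were not measured ones. Masp1 was well above background on 1 of 4 DT-treated ARF-DTR arrays and on 0 of 4 wild type arrays. Cox17 was so on 1 of 2 wild type PBS and 0 of 2 wild type DT arrays, and its second probe gave -0.23 ± 0.35.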
